A study of Mus musculus with 4 samples.

Results

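The genes described here encode the 5 subunits of kainate receptors, Grik1 to Grik5, and the delta receptor subunit Grid1, in the prefrontal cortex of mice. Every probe set that the array's annotation assigns to exactly 1 of these 6 symbols was taken, which gave 10 probe sets of the 45037 non-control probe sets tested. Grik1, Grik2, Grik3 and Grid1 were each read by 2 probe sets, and Grik4 and Grik5 by 1. The threat group comprised 2 arrays of mice exposed to repeated social threat (environment HighThreat in the labels), and the control group 2 arrays of control mice (LowThreat). Each array was hybridised with prefrontal cortex RNA combined from 5 animals. The labels name no strain, sex, age or length of exposure. Each value is a log2 expression value, on which a difference of 1 is a doubling of signal. Because each value averages 5 mice, p-values measure the spread between pools and not that between animals.

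Kainate receptors are glutamate-gated cation channels of 4 subunits, found on both sides of the synapse, where they carry slow excitatory currents and adjust the release of glutamate and GABA. Grik1, Grik2 and Grik3 encode the subunits GluK1, GluK2 and GluK3, which can form channels by themselves. Grik4 and Grik5 encode the high-affinity subunits GluK4 and GluK5, which reach the membrane as working channels only together with one of the first group. Grid1 encodes GluD1, a relative of these subunits that glutamate does not open by itself and that works as a synaptic organiser, bound through secreted cerebellins to presynaptic neurexins.

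Of the 10 probe sets, 9 averaged higher in the threat pools than in the control pools, as did 54% of all probe sets and 63.3% of the bright ones. Bright probe sets are the 22518 of 45037 whose mean exceeded 5.56, the median over the table. Of the 9, 7 had separate pools, meaning that both threat pools lay above both control pools, and 1 of these 7, a Grik1 probe set, had a signal at background level. The background for that count was high, since 23.9% of the whole table and 32.3% of the bright probe sets had their threat pools above. Of the 9 bright subunit probe sets, 6 did. None of the 10 had both threat pools below both control pools, against 19.4% of the whole table and 16.8% of the bright probe sets. The median difference of the 10 was 0.19 on the log2 scale, beside 0.015 over all probe sets and 0.058 over the bright ones. The largest differences were those of Grik4 (1.37-fold) and of 1 probe set of Grid1 (1.32-fold). In limma's test, adjusted over the whole table, none of the 10 passed the threshold of 0.05, with adjusted p between 0.413 and 0.853. No probe set of the table did (0%), and the lowest adjusted p was 0.278. At an unadjusted p under 0.05, 2 of the 10 were higher in threat and none lower, where 4.87% of all probe sets were higher and 5.73% lower. The number of arrays limits the precision, with a median standard error of 0.11 for a log2 difference over all probe sets.

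The marker lists of non-neuronal cell types all had median differences below 0. In bulk RNA, fewer cells of a type and less RNA per cell cannot be told apart. All 9 measured oligodendrocyte markers had both threat pools below both control pools, at a median of -0.99, and their mean level was 9.20 and 9.42 in the threat pools, against 10.57 and 10.10 in the control pools. The 6 mural and meningeal markers had a median of -0.86 (4 separate and lower), the 5 choroid plexus and ependyma markers -0.47 (3), the 5 endothelial markers -0.34 (4), the 6 oligodendrocyte precursor markers -0.17 (2), the 6 microglial markers -0.11 (2) and the 7 astrocyte markers -0.078 (3). None of these lists had a member with separate pools and threat higher. Of all 18193 genes by their brightest probe sets, 18.8% were separate and lower and 26.2% separate and higher. Differences above 0 were found for 2 precursor markers (Pdgfra, 0.0091, and Cspg4, 0.15), 2 astrocyte, 1 microglial and 1 choroid plexus and ependyma marker. Of the last list only 2 markers were bright. Its median is the value of Foxj1, whose threat values of 4.12 and 4.01 lay under the highest Bacillus control (4.25). The medians of the neuronal lists lay near 0, with members that differed in both directions. The 9 measured markers of excitatory cortical neurons had a median of 0.045, with a mean level of 9.51 and 9.46 in the threat pools, against 9.49 and 9.54 in the control pools. In 1 of them both threat pools lay above the control pools (Slc17a7, the vesicular glutamate transporter of cortical excitatory neurons, at 0.23), and in 2 both lay below (the transcription factors Tbr1 at -0.53 and Neurod6 at -0.39). The 10 inhibitory neuron markers had a median of -0.036, with a mean level of 10.42 and 10.26 in the threat pools, against 10.42 and 10.36 in the control pools. Of these, Lhx6 (0.26) had separate pools with threat higher, and the GABA-synthesising enzymes Gad1 (-0.42) and Gad2 (-0.28) had separate pools with threat lower. The 6 pan-neuronal markers had a median of -0.019, with 1 separate and higher (Stmn2, 0.17) and 2 separate and lower (Snap25, -0.14, and Nefl, -0.028). None of these neuronal markers passed limma's test at an adjusted p of 0.05. Markers of striatum (4 measured) and of hippocampus and thalamus (5 measured) had medians of -0.025 and -0.061. No striatum marker had separate pools. Of the hippocampus and thalamus markers, 2 were separate and lower, Prkcd (-0.903) and Prox1 (-0.21), and none separate and higher. The control values of Prkcd lay far apart, at 7.92 in pool 1 and 6.74 in pool 2. In the same list, 2 markers differed above 0 with overlap, Wfs1 and Rora. The part of cell composition in the subunit differences was not tested.

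**Figure D1:**
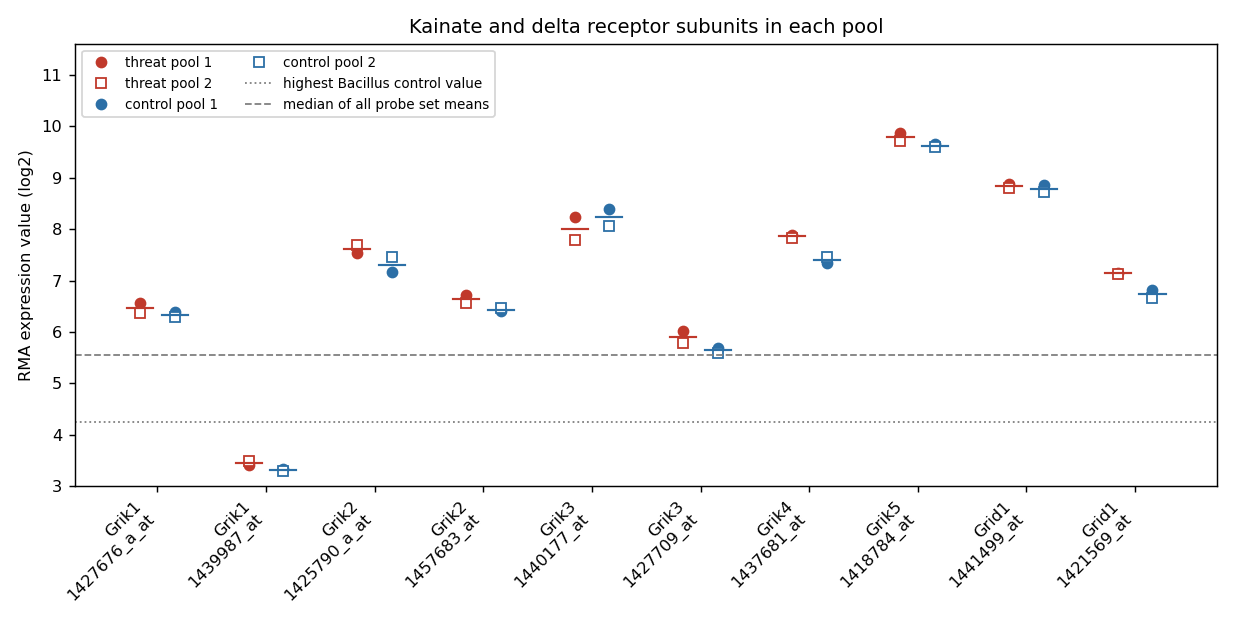
RMA expression value (log2, vertical axis) of the 10 subunit probe sets in each of the 4 pools, with threat in red at the left and control in blue at the right of each pair. Short bars are group means. The Grik5 probe set had the highest values in every pool, and 1 Grik1 probe set lay below the highest reading of the Bacillus controls, shown as a dotted line.

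The order of the signals was almost the same in every pool. By the mean over the 4 pools, Grik5 came first (9.71), followed by Grid1 probe set 1441499_at (8.81), Grik3 probe set 1440177_at (8.12), Grik4 (7.63) and Grik2 probe set 1425790_a_at (7.47). Next came Grid1 probe set 1421569_at (6.94), Grik2 probe set 1457683_at (6.54), Grik1 probe set 1427676_a_at (6.41), Grik3 probe set 1427709_at (5.78) and Grik1 probe set 1439987_at (3.38). The places in this order were identical in all 4 pools except that Grik4 ranked above Grik3 probe set 1440177_at in threat pool 2 and below it in the 3 other pools. Neighbours whose pool values did not overlap were Grik5 and Grid1 1441499_at, that probe set and Grik3 1440177_at, Grik2 1425790_a_at and Grid1 1421569_at, Grik1 1427676_a_at and Grik3 1427709_at, and the last pair. The 4 other neighbouring pairs overlapped. Signals of different probe sets depend on how well their probes bind, so the order is one of array signals and not of transcript abundance.

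Grik4, the gene of the high-affinity subunit GluK4, showed the largest difference. It measured 7.88 and 7.83 in threat pools 1 and 2, against 7.35 and 7.46 in control pools 1 and 2. The gap between the pools of a group was 0.049 in threat and 0.11 in control, and the groups did not overlap. The log2 difference was 0.46 ± 0.09 (SE; 95% interval 0.22 to 0.69; unadjusted p = 0.0037, adjusted p = 0.413 in limma's test). Of all probe sets, 0.528% had a larger positive difference, and 0.764% of the bright ones. Leaving out each pool in turn moved it between 0.40 and 0.51.

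Grik5, which encodes the other high-affinity subunit, GluK5, had the strongest signal of the group and a smaller difference. It measured 9.87 and 9.71 in the threat pools, against 9.65 and 9.60 in the control pools. The groups did not overlap, but threat pool 2 exceeded control pool 1 by less than the 0.16 between the threat pools. The log2 difference was 0.17 ± 0.10 (SE; 95% interval -0.09 to 0.42; adjusted p = 0.570). A larger positive difference was found in 17.9% of all probe sets. It was 0.085 without threat pool 1 and 0.25 without threat pool 2.

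Among the subunits that form channels by themselves, Grik2 was the one whose probe sets both had separate pools well above the Bacillus controls. GluK2, its product, is widely expressed in principal neurons of the forebrain. Probe set 1425790_a_at measured 7.54 and 7.70 in the threat pools, against 7.17 and 7.45 in the control pools. Probe set 1457683_at measured 6.73 and 6.56 in the threat pools, against 6.40 and 6.48 in the control pools. In both, every threat value lay above every control value, by a margin smaller than the gap between the 2 threat pools. The log2 differences were 0.31 ± 0.13 and 0.20 ± 0.10 (SE), with 95% intervals of -0.02 to 0.64 and -0.05 to 0.46 and adjusted p of 0.484 and 0.517. With control pool 1 left out, the first was 0.16, and with control pool 2 left out it was 0.45. The second was 0.12 with threat pool 1 left out.

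The promoter sequences of 4 of the 6 genes, Grik2, Grik3, Grik4 and Grik5, were matched by symbol in RefSeq's table for GRCm38.p6. The 250 bases before the start are shown for the 3 genes whose probe sets were all higher in threat with separate pools, written 5′ to 3′ on the gene's strand (the minus strand in each), with capitals marking the GC box (GGGCGG on either strand), a site that Sp-family factors are known to bind. Grik4 lies at chr9:42944372-42944621, Grik5 at chr7:25072370-25072619 and Grik2 at chr10:49788755-49789004.
Grik4: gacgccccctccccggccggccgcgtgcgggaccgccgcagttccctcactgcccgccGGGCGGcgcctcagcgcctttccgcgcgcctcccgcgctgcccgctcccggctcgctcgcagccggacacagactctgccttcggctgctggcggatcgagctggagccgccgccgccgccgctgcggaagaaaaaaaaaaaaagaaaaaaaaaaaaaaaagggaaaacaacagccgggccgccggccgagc
Grik5: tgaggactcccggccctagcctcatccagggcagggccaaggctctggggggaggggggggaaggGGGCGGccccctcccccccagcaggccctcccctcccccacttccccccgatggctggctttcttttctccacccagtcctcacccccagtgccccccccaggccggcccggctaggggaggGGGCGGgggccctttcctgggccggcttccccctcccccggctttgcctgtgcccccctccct
Grik2: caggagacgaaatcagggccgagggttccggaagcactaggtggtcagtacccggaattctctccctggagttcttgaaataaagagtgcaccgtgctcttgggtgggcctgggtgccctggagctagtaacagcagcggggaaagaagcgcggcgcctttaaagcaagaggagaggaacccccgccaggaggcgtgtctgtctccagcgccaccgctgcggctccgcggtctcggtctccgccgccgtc
Grik4 held 1 GC box, Grik5 held 2, Grik2 none, and Grik3, whose 2 probe sets differed in opposite directions, held 6. A GC box stood in 32.7% of the 32851 promoters of this length in the table. Neither the cyclic AMP response element (TGACGTCA, found in 1.55% of promoters) nor the AP-1 motif (TGANTCA, in 6.75%), both searched on both strands, occurred in any of the 4. The GC content was 69.6% in Grik4, 75.2% in Grik5, 62.8% in Grik2 and 82% in Grik3, beside a median of 52.4% over all promoters. These matches describe letters and not bound sites.

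Grik1, whose product GluK1 is prominent in inhibitory neurons of the forebrain, was among those with small differences. Probe set 1427676_a_at measured 6.57 and 6.38 in the threat pools, against 6.39 and 6.29 in the control pools. Threat pool 2 lay just under control pool 1, so the groups overlapped. The log2 difference was 0.13 ± 0.11 (SE; 95% interval -0.14 to 0.40; adjusted p = 0.665), and it was 0.036 without threat pool 1. Probe set 1439987_at measured 3.41 and 3.48 in the threat pools, against 3.34 and 3.30 in the control pools. All 4 of its values lay under 4.25, the highest reading of the 27 probe sets for Bacillus genes, which serve as a guide to background, so no level of Grik1 can be read from it.

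The 2 probe sets of Grik3, which encodes the low-affinity subunit GluK3, differed in opposite directions. The brighter one, 1440177_at, measured 8.24 and 7.78 in the threat pools, against 8.40 and 8.06 in the control pools. Its groups overlapped, pool 1 lay above pool 2 in both groups, and it had the widest spread of the 10. The log2 difference was -0.22 ± 0.19 (SE; 95% interval -0.70 to 0.27; adjusted p = 0.692). The dimmer one, 1427709_at, measured 6.01 and 5.80 in the threat pools, against 5.70 and 5.60 in the control pools, with no overlap. Its log2 difference was 0.26 ± 0.11 (SE; 95% interval -0.03 to 0.54; adjusted p = 0.490), which was 0.15 without threat pool 1 and 0.37 without threat pool 2. No direction can therefore be given for Grik3. The mean of both probe sets differed by 0.021. Without threat pool 2, the difference of 1440177_at was 0.014, and without control pool 1 it was -0.044. It was -0.44 without threat pool 1 and -0.39 without control pool 2.

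Grid1, the gene of GluD1, also depended on the probe set. Probe set 1421569_at measured 7.16 and 7.13 in the threat pools, against 6.82 and 6.66 in the control pools. The groups were well apart, with a log2 difference of 0.40 ± 0.10 (SE; 95% interval 0.15 to 0.65; unadjusted p = 0.00843, adjusted p = 0.427). The brighter probe set, 1441499_at, measured 8.87 and 8.81 in the threat pools, against 8.85 and 8.72 in the control pools. These overlapped, and the log2 difference was 0.055 ± 0.098 (SE; 95% interval -0.19 to 0.30; adjusted p = 0.853), which turned to -0.015 under cyclic loess and to -0.012 without control pool 2.

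**Figure D2:**
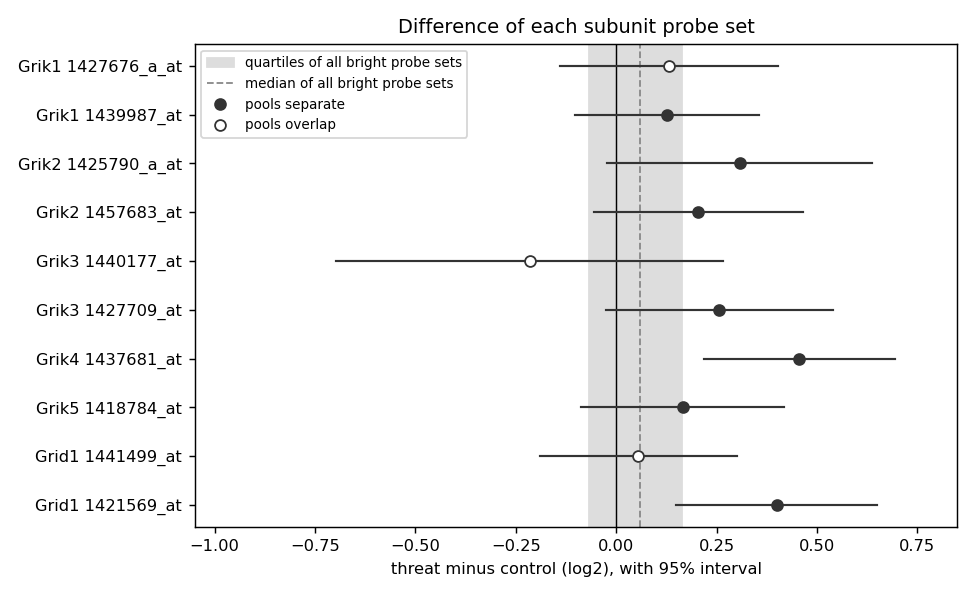
Threat minus control (log2, horizontal axis) for the 10 subunit probe sets, each with the 95% interval of limma's fit. Filled points have separate pools, open points overlap, and the grey band holds the middle 50% of all bright probe sets. The intervals of Grik4 and of Grid1 1421569_at lie above 0, and the 8 others hold 0.

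The disagreement within genes can be read inside each array, where the 2 probe sets of a gene share the RNA. For Grik3, the brighter probe set exceeded the dimmer by 2.23 and 1.99 in the threat pools, against 2.70 and 2.46 in the control pools. For Grid1 the excess was 1.71 and 1.68 in the threat pools, against 2.03 and 2.05 in the control pools. In both genes the distance between the probe sets was thus smaller in each threat pool than in each control pool, by 0.47 for Grik3 and 0.34 for Grid1 on average. Such separation was common, since among 3385 genes with 2 probe sets above background the distance was smaller in both threat pools for 23% and larger in both for 23.3%. The probe sets of Grik2 stood 0.81 and 1.14 apart in the threat pools, against 0.77 and 0.98 in the control pools, and those values overlapped. Grik1 was left out, since its dimmer probe set lay at background. These distances were described and not tested. Which transcript forms each probe set reads was not analysed here.

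**Figure D3:**
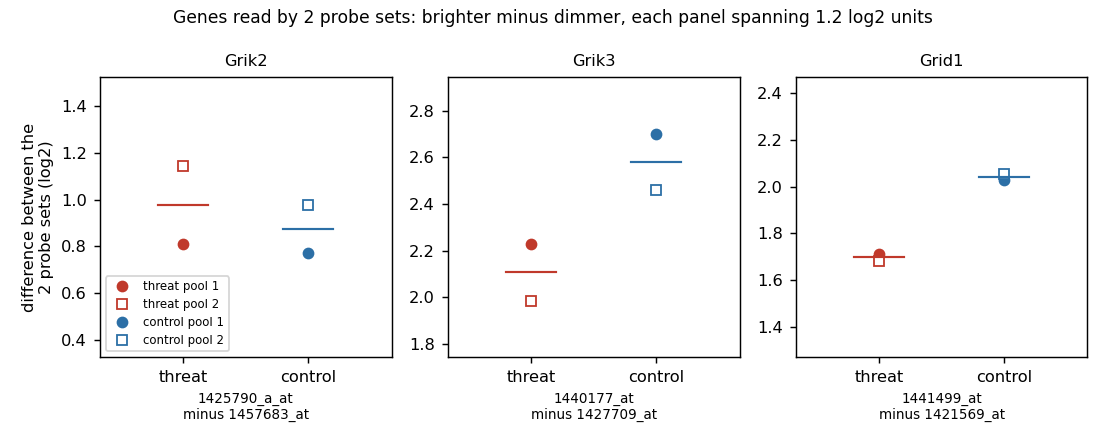
Distance between the brighter and the dimmer probe set of a gene (log2, vertical axis) in each pool, for the 3 genes with 2 probe sets above background. Threat pools are at the left of each panel and control pools at the right, with bars at the means. The threat pools lie below the control pools for Grik3 and Grid1, and the groups overlap for Grik2.

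The auxiliary subunits Neto1 and Neto2, which bind kainate receptors and slow their closing, were measured by 3 probe sets each. All 6 averaged higher in the threat pools, as did 54% of all probe sets, and 5 of them had separate pools with threat higher, as did 23.9% of all and 32.3% of the bright ones. One of these 5, Neto2 probe set 1457344_at, lay below the highest Bacillus reading of 4.25 in every pool, so no level of Neto2 can be read from it. By its brightest probe set, Neto1 measured 10.27 and 10.11 in the threat pools, against 10.00 and 10.02 in the control pools, with a log2 difference of 0.18 ± 0.10 (SE; adjusted p = 0.541). The other probe sets of Neto1 differed by 0.23 and 0.11. Neto2 measured 9.17 and 9.08 in the threat pools, against 9.11 and 9.05 in the control pools by its brightest probe set, which overlapped, with a log2 difference of 0.047 ± 0.093 (SE; adjusted p = 0.870). Neto2 probe set 1454032_at, with separate pools, measured 7.12 and 7.18 in the threat pools, against 6.96 and 6.94 in the control pools. Its log2 difference was 0.20 ± 0.09 (SE).

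Of the 7 secreted partners, read by their brightest probe sets, 2 had both threat pools above and 2 had both below the control pools, and the median difference was -0.078. Taken the same way, 26.2% of all 18193 genes had their threat pools above and 18.8% below, with a median difference of 0.024. Cbln1, a cerebellin that links delta receptors to neurexins, was higher in threat by all 3 of its probe sets. Its brightest measured 8.17 and 8.04 in the threat pools, against 7.93 and 7.55 in the control pools, with a log2 difference of 0.37 ± 0.15 (SE; adjusted p = 0.473). The other probe sets of Cbln1 had separate pools too, at 0.47 and 0.33. Cbln3 differed by 0.49 ± 0.09 (SE; adjusted p = 0.413), but its signal was weak, with 4.40 and 4.43 in the threat pools, against 3.98 and 3.87 in the control pools, and both control values lay under the highest Bacillus reading of 4.25. Cbln4 was lower, at 5.66 and 5.68 in the threat pools, against 6.23 and 5.83 in the control pools (log2 difference -0.36 ± 0.15, SE; adjusted p = 0.478). C1ql1 was lower by a narrow margin, at 5.826 and 5.791 in the threat pools, against 6.081 and 5.834 in the control pools. Its log2 difference was -0.15 ± 0.12 (SE; adjusted p = 0.643 in limma's test). Cbln2 overlapped between the groups at a difference of 0.23. C1ql3, a C1q-like protein that recruits kainate receptors at hippocampal mossy fibre synapses, overlapped at -0.078, as did C1ql2 at -0.081. The other probe sets of C1ql3 overlapped too, at 0.090 and 0.15.

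**Figure D4:**
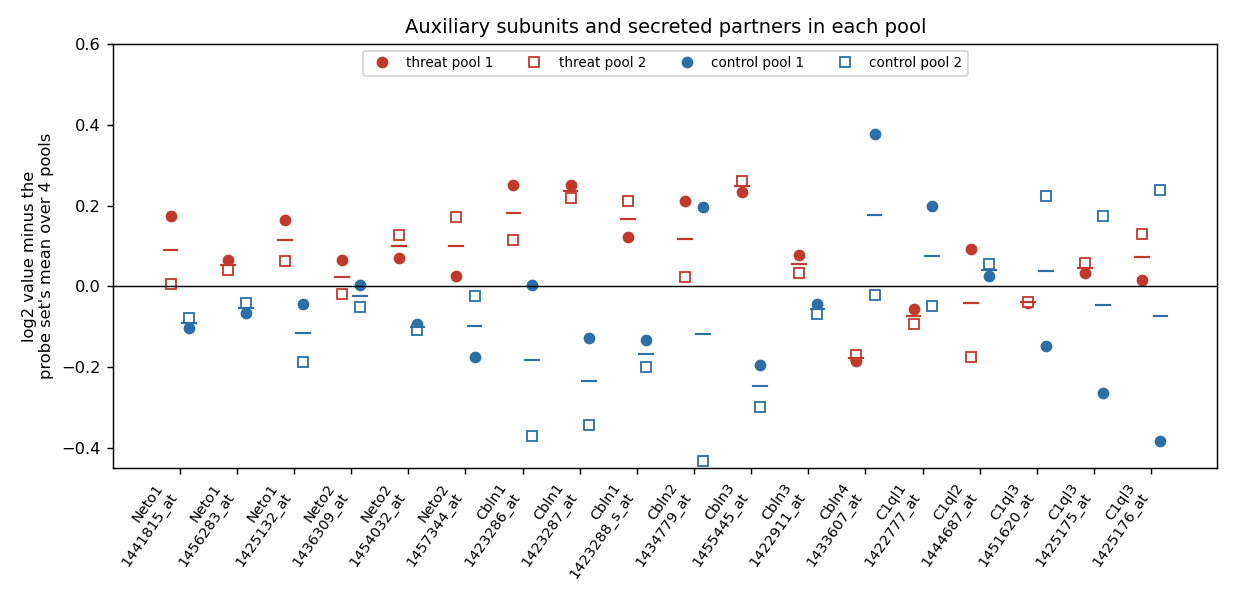
Log2 value of each probe set of the auxiliary subunits and secreted partners minus its own mean over the 4 pools (vertical axis), with threat pools in red at the left and control pools in blue at the right of each pair. Bars are group means. All probe sets of Neto1, Neto2, Cbln1 and Cbln3 average higher in threat, and those of Cbln4 and C1ql1 lower.

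The remaining partners did not shift in 1 direction. The shares to set beside their counts are those of all genes by their brightest probe sets, 26.2% separate and higher and 18.8% separate and lower. Of the 3 neurexins, 2 were measured, Nrxn2 at 0.016 and Nrxn3 at -0.082 by their brightest probe sets, whose pools overlapped. The other probe sets of Nrxn3 all had separate pools, but in opposite directions, higher in threat at 0.22 and 0.32 and lower at -0.16 and -0.30. Of 10 PDZ and scaffold proteins that bind the subunits, 2 had separate pools with higher and 4 with lower values in threat, at a median of -0.016, led by Grip2 (-0.23) and Dlg3 (0.20). Cask counted among the lower by its brightest probe set (-0.14). Its other probe sets, named after their values were seen, were higher, at 0.15 with overlap and at 0.23 and 0.28 with separate pools. The 2 probe sets of Grip1, a PDZ protein that binds GluK2 and AMPA receptors, disagreed. The brighter differed by -0.062 and counted as lower, with 7.556 in threat pool 2 and 7.558 in control pool 1. The other, named after its values were seen, measured 7.34 and 7.32 in the threat pools, against 6.78 and 6.81 in the control pools (0.54 ± 0.09, SE; adjusted p = 0.400). Of 16 measured genes of trafficking, editing and turnover, 5 had separate pools with higher and 4 with lower values in threat, and the median was 0.020. Klhl17, the adaptor that directs GluK2 to degradation, had the largest difference of that list by the brightest probe sets, with 8.70 and 8.56 in the threat pools, against 8.38 and 8.19 in the control pools (0.35 ± 0.11, SE; adjusted p = 0.446). Its other probe set differed by 0.14 and overlapped. Kif5b, a kinesin motor, followed at -0.24 by its brightest probe set, but its 6 probe sets disagreed widely. Named after their values were seen, Kif5b 1418428_at measured 7.62 and 7.74 in the threat pools, against 8.69 and 8.66 in the control pools (-0.99 ± 0.09, SE; adjusted p = 0.278, the lowest of the whole table), and 1418429_at differed by -0.86 with separate pools. The 3 others of Kif5b overlapped, at -0.041, 0.0075 and 0.072. A dimmer probe set of Snap25 differed by -0.82, with separate pools, beside -0.14 for its brightest. Adarb1, the enzyme that edits the pore of GluK1 and GluK2 transcripts, measured 8.21 in both threat pools, against 8.05 and 7.90 in the control pools (0.23 ± 0.10, SE; adjusted p = 0.482).

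Among the AMPA and NMDA receptor genes, the other ionotropic glutamate receptors, 10 of 11 were measured under a single symbol. By their brightest probe sets 3 had separate pools with higher and 3 with lower values in threat, and the median difference was 0.052. The 6 kainate and delta genes taken the same way had a median of 0.15, with 3 separate and higher and none separate and lower. Of all 18193 genes, 26.2% were separate and higher and 18.8% separate and lower. Grin3b (-0.33) and Gria3 (-0.28) had the largest differences by these probe sets, and Gria1 differed by 0.22. Dimmer probe sets of Gria4 and Grin2b differed by more, at -0.41 with separate pools and 0.42 with overlap. Gria4 had counted as separate and higher by its brightest probe set (0.14). A dimmer probe set of Gria2 had separate pools at -0.29, beside 0.036 with overlap for its brightest. The counts of these genes thus depend on the probe set chosen. The difference between the families was not tested.

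The genes whose 4 values were most like those of a subunit were found by the root mean square distance between mean-centred log2 values over the 4 pools, among 11925 other genes with a bright brightest probe set. For Grik4 they were B230303A05Rik, Tecpr2 and Tmem87b, at distances of 0.0144, 0.0148 and 0.0177, and 20 genes lay within 0.05. For Grik2 they were Ago3, Kndc1 and Epha5 (0.0126, 0.0139 and 0.0159), with 87 genes within 0.05. For Grik3 1440177_at they were Itgb2l, Dck and Celrr (0.0256, 0.0426 and 0.0459), with 8 genes within 0.05. Tmem134, Lipt2 and Ankrd54 were nearest to Grik1, Atg14, Eri3 and Clec11a to Grik5, and Nudc, Mphosph6 and Fsd1 to Grid1 1441499_at, where 854, 889 and 1469 genes lay within 0.05. With 4 arrays, many genes come this close to a pattern of small differences.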

How the data were processed

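Per the labels, RNA was hybridised to 4 Affymetrix MOE430 2.0 arrays (2 threat and 2 control pools of 5 mice). The values deposited are log2 signals made by RMA, per the submitters' processing notes. The sources used here do not give its version, settings or chip definition. Array medians ran from 5.53 to 5.58 and correlations between arrays from 0.994 to 0.996. Such values hide a change of most transcripts in 1 direction. The 64 control probe sets were left out. Symbols came from the platform annotation, and only probe sets with 1 symbol were named.

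Threat minus control was fitted in R 4.3.3 with limma 3.58.1 (no intensity trend, 2-sided, Benjamini-Hochberg adjustment over 45037 probe sets, 2 residual degrees of freedom), tested on simulated data. The smallest exact permutation p for 2 pools a side is 0.333, so that test was not used. The labels do not say whether pools came from separate cages or days. Where a gene counts once, its probe set with the highest mean stands for it. Named were all members, the leading partner genes and the 3 nearest genes by pattern. Members and lists were chosen with earlier results of these data known. Alternatives were the pool number as a block, cyclic loess, median centring, an intensity trend, bright probe sets alone, other probe set choices and each pool left out.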

Additional observations from a re-analysis of the deposited data

How the results depend on the processing

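The replicate block, the intensity trend and the fit of bright probe sets alone cannot change a log2 difference, only its standard error and p. Over 89 recomputed differences of the 10 subunit probe sets, these fits included, 86 kept their direction. The 3 others changed sign: Grik3 1440177_at came to 0.014 without threat pool 2, in a range of -0.44 to 0.014 without 1 pool, and Grid1 1441499_at to -0.015 under cyclic loess and to -0.012 without control pool 2, in a range of -0.012 to 0.12 without 1 pool. Grik3 as a gene was -0.22 by its brightest probe set and 0.021 by the mean of all, or of all bright, probe sets. The median of the 10 lay between 0.13 and 0.24 without 1 pool, at 0.15 under cyclic loess and at 0.22 under median centring. The median of all bright probe sets, 0.058 in the main fit, was 0.014 under cyclic loess and 0.094 under median centring. Without 1 pool it ran from 0.049 to 0.057. Median centring moves every difference by the same amount. The number of separate and higher probe sets was 7 to 9 without 1 pool, when fewer pools have to be separate (37.2% to 40.4% of all probe sets then were), 7 under cyclic loess (20.7% of all) and 8 under median centring (31.0%). Separate and lower probe sets numbered 0 to 1 without 1 pool (31.1% to 35.2% of all probe sets), the 1 being Grik3 1440177_at, both without threat pool 1 and without control pool 2. Over all probe sets, limma's test gave 0 with an adjusted p under 0.05 in either direction, also in each alternative fit, while 2193 were higher and 2581 lower at an unadjusted p under 0.05. The rule of 1.5-fold with separate pools gave 50 higher and 324 lower, none of them a subunit.

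The pool number as a replicate block cannot move the median of 0.19 or the count of 7, since each number occurs once in each group. Only standard errors and p could change, and no adjusted p was under 0.05. Same-numbered pools' deviations correlated at 0.330, but 2 pairs cannot show that the numbers pair the pools. Medians of partner lists taken over all probe sets of a gene were 0.053 for the secreted partners, 0.13 for the PDZ and scaffold proteins and -0.059 for the AMPA and NMDA genes. By the brightest probe sets, medians without 1 pool ran from -0.076 to 0.052 for secreted partners and from -0.26 to 0.19 for neurexins. For the AMPA and NMDA genes, read the same way, they ran from -0.043 to 0.16. Medians of the cell type lists without 1 pool ran from -1.30 to -0.71 for oligodendrocyte, -0.27 to -0.082 for oligodendrocyte precursor, -0.17 to -0.029 for astrocyte, -0.20 to -0.054 for microglia, -0.51 to -0.21 for endothelium, -1.40 to -0.48 for mural and meningeal (-0.68 over all probe sets of a gene) and -0.56 to -0.32 for choroid plexus and ependyma genes, each below 0 throughout. They crossed 0 for excitatory cortical neuron (-0.045 to 0.075), inhibitory neuron (-0.24 to 0.049), pan-neuronal (-0.026 to 0.025), striatum (-0.29 to 0.26) and hippocampus and thalamus genes (-0.14 to 0.15). No direction was called for a list median, so a change of its sign was counted as a move and not as a reversal, a choice made after the values were seen. Detection calls were not used here, so weak signals were judged against the Bacillus controls.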
